A study of Mus musculus with 4 samples.

Results

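Band-stage neutrophils positive for Retnlg were the subject here. They were defined by 3 genes in single-cell RNA data from mouse bone marrow, among barcodes with at least 500 genes, at least 1000 UMIs (counted RNA molecules) and at most 10% mitochondrial UMIs. A cell belonged to the gate when Retnlg took at least 0.1% of its UMIs and Camp and Ngp together took at least 1%. The gate held 2483 of 31209 kept cells (34670 barcodes in all). The label rests on the markers Retnlg, Mmp8, Mmp9 and Fpr1. Nuclear shape was not measured, so the name is that of the gate, which may also hold cells of earlier stages. Since Retnlg, Camp and Ngp chose the cells, their levels are given as a description, with no test.

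All recipients were lethally irradiated and reconstituted with equal parts of CD45.1+ Tet2+/+ and CD45.2+ Tet2+/- marrow. Tet2 is a dioxygenase that acts on methylated cytosines and is often mutated in clonal blood disorders. After 1 month of engraftment came 7 months of treatment, with intraperitoneal injections 2 times a week and additions to the drinking water. The Control group received PBS injections and 100 mM NaCl in the water. The Butyrate group received PBS and 100 mM NaButyrate, the sodium salt of a short-chain fatty acid that gut bacteria make. The B12 group received 0.29 µg of vitamin B12 per injection and 100 mM NaCl, and the B12+Butyrate group received the same B12 dose and 100 mM NaButyrate.

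In each group, viably frozen marrow of 3 mice was pooled, live CD45.2+ cells were sorted, and cKit+ and cKit- fractions were mixed 50:50. CD45.2 marks the Tet2+/- donor cells, so in all 4 groups the sort was for that genotype and left out the CD45.1+ wild-type competitor. The strain and CD45 allele of the recipients were not given in the sources used here. Whether any recipient cells passed the sort is thus not known. Each group is 1 library with no replicate, so the mice cannot be told apart, groups were compared without a test, and intervals cover counting error only. A model with both treatments as additive terms, which would take their interaction as the error, was not run. The cKit mixing sets the proportion of progenitors, and with it the shares of all cell types.

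Neutrophils mature in the marrow through promyelocyte, myelocyte, metamyelocyte and band stages before the nucleus becomes segmented. Their granules are made in waves: primary (azurophil) granules with myeloperoxidase and elastase first, then secondary granules with lactoferrin and cathelicidin, then tertiary granules with gelatinase. The band stage is the last before the segmented stage, and by then cells no longer divide. Retnlg encodes a resistin-like secreted protein of neutrophils. Mmp8 encodes neutrophil collagenase, Mmp9 encodes gelatinase B, and Fpr1 encodes a receptor for formylated bacterial peptides. Camp encodes cathelicidin and Ngp the neutrophilic granule protein, both of secondary granules.

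The 3 upstream sequences below are shown because these genes, 2 of the rule and a marker that rose through the gate in every library, carry a match to the C/EBP motif TTGCNNAA (reverse complement TTNNGCAA) within 250 bases before the start. C/EBP factors drive granule genes. Capitals mark the matches, and the sequences are from RefSeq on GRCm38.p6, read 5′ to 3′ on the plus strand: Retnlg at chr16:48872358-48872607, Mmp8 at chr9:7558179-7558428 and Ngp at chr9:110419558-110419807.
Retnlg: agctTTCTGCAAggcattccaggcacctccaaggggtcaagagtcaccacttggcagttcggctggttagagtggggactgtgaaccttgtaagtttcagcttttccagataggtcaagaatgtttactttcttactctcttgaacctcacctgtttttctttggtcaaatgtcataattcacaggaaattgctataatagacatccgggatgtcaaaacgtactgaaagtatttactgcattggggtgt
Mmp8: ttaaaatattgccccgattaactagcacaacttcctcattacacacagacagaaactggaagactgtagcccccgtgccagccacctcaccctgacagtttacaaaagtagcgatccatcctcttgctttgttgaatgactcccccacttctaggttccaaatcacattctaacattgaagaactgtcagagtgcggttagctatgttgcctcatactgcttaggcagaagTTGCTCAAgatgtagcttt
Ngp: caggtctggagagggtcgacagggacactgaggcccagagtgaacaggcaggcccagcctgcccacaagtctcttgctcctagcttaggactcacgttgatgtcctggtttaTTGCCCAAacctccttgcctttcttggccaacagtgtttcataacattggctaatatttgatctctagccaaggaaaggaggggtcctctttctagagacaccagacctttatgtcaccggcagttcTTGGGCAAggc
Of 8 genes looked up, 7 had a promoter in the table and 5 held the motif. Its first base lay 246 bases before the start in Retnlg, 19 in Mmp8, 138 and 11 in Ngp, 75 in Ltf and 216 in Lcn2. Fpr1 and Camp held none in this window, and Mmp9 was not in the table. Of all 32851 promoters of that length, 9.56% held the motif. A match describes the letters only, and no binding was measured.

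The defining markers were present. Mmp8 stood at 1817, 2870, 2161 and 2745 CPM (UMIs scaled to 1e+06 UMIs of the gate) in Control, Butyrate, B12 and B12+Butyrate, in which order values are given throughout. Mmp9 stood at 1867, 2528, 2018 and 2366 CPM, and Fpr1 at 117, 165, 132 and 139 CPM. All 3 were lowest in Control and highest in Butyrate. The secondary granule gene Ltf (lactoferrin) was present too, at 8077, 10449, 8546 and 9789 CPM.

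The gate's limits cut a continuum. Cells just inside the Retnlg limit, at 0.1 to 0.2% of UMIs, held 853, 1592, 933 and 1340 CPM of Mmp8. Cells just outside, at 0.05 to 0.1%, held 411, 713, 763 and 855 CPM. At the other limit, cells with 1 to 2% Camp and Ngp held 2412, 2620, 2455 and 2319 CPM of Ltf, and cells with 0.5 to 1% held 667, 791, 691 and 571 CPM.

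The gate's libraries had 7982235, 3247043, 6783810 and 7231444 UMIs in all, with medians of 8592, 8006, 8040.5 and 8713 UMIs per cell. The libraries shared 8 to 23 kept barcodes per pair and 0 in the gate. Barcodes that may hold 2 cells were called by a doublet score and made up 16.3%, 6.96%, 15.0% and 9.93% of the gate, against 7.00%, 5.43%, 6.44% and 6.09% of all kept cells. The shares of all kept cells were fixed beforehand at 0.8% per 1000 kept cells, so they follow cell number and measure no doublet rate. The Butyrate gate stood apart with the fewest cells and the lowest share of called doublets. Its library also had the fewest kept cells and so the lowest fixed share. The rule keeps called doublets, so the main differences between libraries are also given without them.

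Markers of monocytes, B cells and dendritic cells were lower in every library without called doublets. The 6 monocyte markers summed to 411.7, 130.3, 205.5 and 132.2 CPM, and to 78.9, 17.1, 18.6 and 14.8 CPM without called doublets. The 6 B cell markers summed to 46.9, 62.8, 33.9 and 80.5 CPM and to 4.59, 5.09, 7.25 and 2.82 CPM without them. The 5 dendritic cell markers summed to 62.6, 39.1, 44.5 and 68.5 CPM and to 5.17, 2.91, 19.2 and 39.8 CPM. Sums for T cell (17.2 to 33.1 CPM), NK cell (0 to 1.13 CPM), basophil and mast cell (0.415 to 1.88 CPM), eosinophil (up to 6.04 CPM), erythroid (1.54 to 5.31 CPM) and stem cell lists (25.2 to 29.2 CPM) were low in each library.

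The gate was then set against its neighbours in maturation. Cells with Camp and Ngp at 1% or more but Retnlg under 0.1% (the secondary granule gate, 11713 cells) lie before it, and cells with Retnlg at 0.1% or more but Camp and Ngp under 1% (the mature gate, 2293 cells) lie after it. UMIs were summed per library and gate and tested with edgeR's quasi-likelihood test with the 4 libraries as blocks, leaving out Retnlg, Camp and Ngp. A gene was called at a Benjamini-Hochberg adjusted p under 0.05 and at least 2-fold. The rule did not use these genes, but a gate on 3 genes also selects cells by whatever goes along with them, so the counts describe how the gates differ and the libraries show how far the difference repeats under 4 treatments.

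Against the secondary granule gate, 1445 of 13278 genes (10.9%) were called higher in the band gate and 1804 (13.6%) lower. Against the mature gate, 634 of 9690 genes (6.54%) were called higher and 1042 (10.8%) lower. The counts of list members given below are to be read against these shares. Tertiary granule and maturation genes rose and cell cycle genes fell from the secondary granule gate to the band gate, and secondary granule genes were higher in the band gate than in the mature gate. Without called doublets the first comparison gave 1874 higher and 3105 lower of 12429 genes, and the second gave 804 and 895 of 8066.

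All 15 tested members of the tertiary granule and maturation list were called higher than in the secondary granule gate, with a median log2 difference of 3.24, against -0.08 over all genes tested. Mmp8 averaged 58.6 CPM in the secondary granule gate, 2398 CPM in the band gate and 1664 CPM in the mature gate over the 4 libraries. Its fitted log2 difference was 5.57 (SE 0.13, adjusted p = 3.55e-09, edgeR) from the gate before and 0.68 (SE 0.11, adjusted p = 2.06e-04, edgeR) from the gate after. The lowest band value of any library (1817 CPM) was above the highest secondary granule value (84.0 CPM), and it lay below the highest mature value (1819 CPM). SE, here and below, is the absolute fitted log2 difference divided by the square root of the test's F statistic, and edgeR does not report it.

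Mmp9 and Fpr1 entered at the same step and then differed. Mmp9 was 4.11 log2 units (SE 0.09) above the secondary granule gate, and its level did not pass the test against the mature gate (log2 0.15, SE 0.09, adjusted p = 0.221, edgeR). The 4 band values of Mmp9 (1867 to 2528 CPM) overlapped the mature ones (2109 to 2301 CPM). Fpr1 was 4.92 units (SE 0.09) above the secondary granule gate and 0.55 units below the mature gate (fitted log2 -0.55, adjusted p = 6.12e-04, edgeR). Fpr1 ran from 4.91 to 5.45 CPM in the secondary granule gate, 117 to 165 CPM in the band gate and 207 to 246 CPM in the mature gate, with no overlap between gates.

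The other genes with the largest rise at this step were Cstdc4, Arg2, Stfa2l1, Gpr27, Ankrd33b, Bst1 and Clec4d, among genes at 50 CPM or more in either gate. Arg2, an arginase, went from 1.12 CPM to 62.5 CPM and on to 422 CPM in the mature gate. Bst1, a surface enzyme of NAD metabolism known as CD157, went from 1.95 to 62.4 and 161 CPM, and Clec4d, a C-type lectin receptor, from 2.24 to 69.4 and 795 CPM. Gpr27, an orphan G protein-coupled receptor, differed from these in falling again: it averaged 1.53, 55.7 and 37.2 CPM in the 3 gates. Cstdc4 and Stfa2l1 belong to the stefin cluster of near-identical genes, so their split of reads is uncertain.

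Dividing cells marked the secondary granule gate. Of the G2/M list, 20 of 20 tested genes were called lower in the band gate, and of the S phase list 17 of 18. The genes with the largest falls were Kif4, Hmmr, Depdc1a, Mki67, H2ac4, Cenpf, Knl1 and Asf1b, at fitted log2 differences between -2.39 and -2.30. Mki67, a marker of proliferating cells, averaged 407 CPM in the secondary granule gate and 73.9 CPM in the band gate, where it stood at 123, 35.1, 87.4 and 50.8 CPM. Without called doublets Mki67 stood at 26.2, 5.45, 8.11 and 9.69 CPM and the fitted difference was -4.67. H2ac4 is a histone gene with near-identical copies.

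Primary granule genes were low. Of 10 tested, 7 were called lower than in the secondary granule gate and 5 lower than in the mature gate, with medians of -1.78 and -0.91. Serpinb1a, a protease inhibitor, went the other way at the second border, 2.73 units above the mature gate. The mature gate also held more monocyte and B cell markers than the band gate in every library. Its monocyte markers summed to 885, 568, 435 and 646 CPM and its B cell markers to 312, 374, 134 and 226 CPM. T cell markers, at 13.1 to 27.1 CPM, were not higher there in every library. Whether RNA of other cells raised the primary granule levels of the mature gate was not tested. Elane, neutrophil elastase, stood at 560.5, 89.9, 249.6 and 79.7 CPM in the band gate, and at 141, 9.09, 23.5 and 6.69 CPM without called doublets. In every library the level in the secondary granule gate (856 to 1242 CPM) was higher. The 10 cells with the most Elane held 63.1% to 93.8% of its UMIs in each library, so this level belongs to few barcodes.

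Secondary granule genes split at the 2 borders. Against the mature gate 10 of 12 were called higher (median log2 1.87), and against the secondary granule gate 1 was called higher and 1 lower (median 0.49). Ltf stood 6.39 units (SE 0.15, adjusted p = 1.26e-11, edgeR) above the mature gate and 0.66 above the secondary granule gate, so the band gate held its highest level: 6659 CPM before, 9215 CPM in the gate and 126 CPM after, as means of the 4 libraries. Chil3, a chitinase-like protein, was 1.04 units lower than before (log2 -1.04) and 4.51 higher than after. Orm1 (orosomucoid), Cpa6 (a carboxypeptidase), Inhba (the activin A subunit), Zmpste24 (a protease that processes prelamin A), Olfml2b and 9830166K06Rik were the other genes with the largest fall towards the mature gate, with differences of 4.11 to 5.81.

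**Figure D1:**
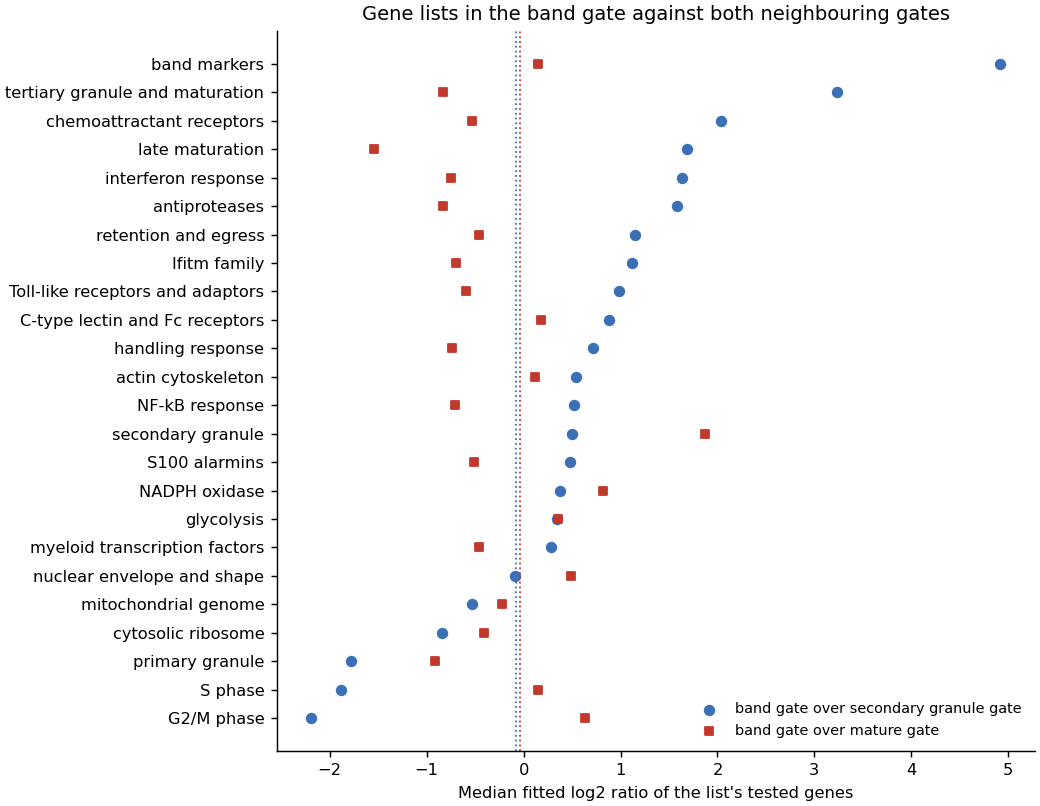
Median fitted log2 difference between the band gate and the secondary granule gate (blue circles) and between the band gate and the mature gate (red squares) for 24 gene lists. Dotted lines mark the medians of all genes tested (-0.08 and -0.03). The tertiary granule and late maturation lists are above 0 against the secondary granule gate and below 0 against the mature gate, and the secondary granule list is far above 0 against the mature gate.

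Genes that were higher in the mature gate included inflammatory mediators. Il1b (interleukin 1 beta) averaged 26.6 CPM in the band gate and 758 CPM in the mature gate (fitted log2 -4.70, SE 0.14, adjusted p = 3.89e-11, edgeR). Ptgs2 (cyclooxygenase 2), Pla2g7 (the enzyme that inactivates platelet-activating factor), Wfdc17, Ifitm1, Lypd6b, Prr5l and Tspan13 lay 3.88 to 4.49 units below the mature gate. Of the late maturation list, 13 of 15 genes were called higher than in the secondary granule gate and 12 of 15 lower than in the mature gate, with medians of 1.68 and -1.54. The interferon list gave 15 higher and 1 lower of 21 against the secondary granule gate, and 0 higher and 9 lower against the mature gate.

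Of the 12 genes on the retention and egress list, 8 were called higher than in the gate before, and 2 were called higher and 5 lower than in the gate after. Over all genes tested, 10.9% were higher than in the gate before, and 6.54% were higher and 10.8% lower than in the gate after. Cxcr2, the receptor for CXCL chemokines that draws neutrophils into blood, stood at 221, 262, 266 and 246 CPM. Its mean level was 30.2 CPM in the gate before and 825 CPM in the gate after (fitted log2 differences 3.24 and -1.55). Cxcr4, the receptor for the marrow's retention signal, was 0.93 units above the gate before, under the 2-fold limit, and did not pass the test against the gate after (log2 -0.15, adjusted p = 0.153, edgeR). Csf3r, the receptor for G-CSF, was called at both borders (1.72 and -2.11). Ly6g, the surface marker of mouse neutrophils, was called higher than in both neighbours (1.76 and 1.44).

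Among chemoattractant receptors 6 of 8 were called higher than in the gate before, and 1 was higher and 2 were lower than in the gate after. For all genes tested the shares were 10.9% higher at the border before, and 6.54% higher and 10.8% lower at the border after. Fpr2, the second formyl peptide receptor, was 2.10 units above the gate before and 0.43 above the gate after. Ltb4r1, the leukotriene B4 receptor, was 1.90 units above the mature gate and within 2-fold of the secondary granule gate (0.30). Of 15 Toll-like receptor and adaptor genes, 7 were called higher than in the gate before, led by the flagellin receptor Tlr5 (5.03) and by Tlr13 (3.53), which senses bacterial ribosomal RNA. Tlr5 is a low gene: it stood at 5.39, 9.24, 8.25 and 9.40 CPM.

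Cybb, the catalytic subunit of the NADPH oxidase, which makes the oxidative burst, was 2.46 units higher than in the mature gate and within 2-fold of the secondary granule gate (0.35). Of the other genes on the oxidase list 4 were called at neither border.

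Transcription factors gave 4 higher and 2 lower of 15 at the border before, and 3 higher and 2 lower at the border after. Over all genes tested, 10.9% were higher and 13.6% lower at the border before, and 6.54% and 10.8% at the border after. The counts of lower factors were thus near those shares. Cebpe, the regulator of secondary granules, stood at 241, 261, 250.4 and 256 CPM and was 3.05 units above the mature gate. Gfi1, a transcriptional repressor, fell by 1.31 units from the gate before. Cebpb, tied to emergency granulopoiesis, was called lower than in the mature gate (log2 -1.72). Mxd1, a MYC antagonist, was 2.13 units above the gate before.

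Genes of nuclear shape differed among themselves. Lmnb1, lamin B1, was called higher than in the gate before and lower than in the gate after (1.27 and -1.31). Syne1 and Syne2, which link the nucleus to the cytoskeleton, were 1.99 and 1.63 units above the mature gate. The chromatin protein Hmgn2 was called lower than in the gate before (-1.36) and higher than in the gate after (1.41). The nuclear envelope receptor Lbr was called at neither border (0.34 and -0.31).

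A set of 71 genes was called higher in the band gate than in both neighbours, out of 9667 tested in both comparisons (0.734%), and 70 of them were called so without doublets too. The 8 with the largest smaller fold were Styk1, Astn2, Has2, Cish, Acvrl1, Gm57285, Adgrg6 and Col5a1. Acvrl1, a TGF-beta family receptor, stood at 61.3, 91.2, 69.4 and 93.8 CPM in the band gate. It ran from 5.45 to 6.88 CPM in the gate before and from 14.3 to 19.4 CPM in the gate after, so the gates did not overlap. Its fitted log2 differences were 3.89 (SE 0.11, adjusted p = 6.46e-09, edgeR) and 2.31 (SE 0.12, adjusted p = 3.53e-09, edgeR).

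Astn2, best known for trafficking of neuronal adhesion proteins, stood at 33.7, 57.9, 34.9 and 42.7 CPM in the band gate, at 7.08 to 10.6 CPM before and at 0.537 to 1.46 CPM after. Styk1, a kinase-like membrane protein, stood at 16.5, 22.8, 24.5 and 23.5 CPM, with 2.82 to 3.71 CPM before and 0.583 to 2.45 CPM after. Has2 (hyaluronan synthase), Cish (a feedback inhibitor of cytokine signalling) and Col5a1 (a collagen chain) were low genes, at 2.88 to 9.27 CPM in the band gate.

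Another 58 genes (0.600%) were called lower than in both neighbours, and 24 of them were called so without doublets. Among the 8 with the largest smaller fold were Pcbp3, Mpo, Ctsg, Cacnb2, Cst7, Cyp20a1 and Dmkn. Of these, all but Mpo and Ctsg were low genes, at 0 to 10.6 CPM in the band gate. Without called doublets Pcbp3, Cyp20a1 and Dmkn were not tested against the mature gate. The count of 24 thus also leaves out genes that were no longer tested. Mpo, myeloperoxidase, stood at 378, 41.9, 136 and 26.0 CPM in the band gate, against 327 to 573 CPM before and 197 to 569 CPM after. The Control value of the band gate overlapped both neighbours, and the other 3 lay below them. As given above, the mature gate held more monocyte and B cell markers than the band gate.

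The gate could also be read as a course. Its cells were divided into early, middle and late groups of equal size over the pooled libraries by the ratio of the Retnlg share to the Camp and Ngp share, with limits at 0.0608 and 0.310. This ordering uses the rule's own genes and is a description. Early, middle and late cells made up 32.4%, 36.4% and 31.2% of the Control gate and 37.3%, 30.6% and 32.0% of the Butyrate gate. They made up 31.3%, 33.9% and 34.8% in B12 and 34.3%, 30.9% and 34.8% in B12+Butyrate. Called doublets were fewest among late cells, at 3.21% to 5.70%, against 5.97% to 19.4% among early cells and 10.9% to 22.6% in the middle.

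Of 4945 genes measured, 820 (16.6%) rose from early to late in every library and 377 (7.62%) fell, as counts with no test. Of the tertiary granule and maturation list, 13 of 15 did so upwards, and of the late maturation list 13 of 14. Mmp8 went through 1037, 1857 and 3173 CPM in Control, 1850, 3223 and 4198 CPM in Butyrate, 1251, 2221 and 3541 CPM in B12, and 1801, 2939 and 3968 CPM in B12+Butyrate. In each library the late level was above that library's mature gate (1601 to 1819 CPM), so Mmp8 peaked inside the band gate. Early cells of both butyrate libraries held more Mmp8 than early cells of the other libraries. Called doublets made up 19.4% and 18.4% of early cells in Control and B12, and 5.97% and 10.2% in Butyrate and B12+Butyrate. The early levels were not taken without called doublets, so the part of doublets in this difference was not tested.

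Secondary granule genes were lower in late than in early cells. Ltf, which was higher in early cells than in the secondary granule gate in each library, went from 9381 to 5099 CPM between early and late cells in Control, and was likewise lower in late cells in Butyrate (12508 and 5674 CPM), B12 (10324 and 5186 CPM) and B12+Butyrate (12089 and 5772 CPM). Chil3 went from 3627 to 701 CPM in Control and ended at 510.4 to 632 CPM elsewhere. Of 12 secondary granule genes, 6 fell in every library and 0 rose. Cxcr2 rose from 111 to 137 CPM in early cells to 442 to 523 CPM in late cells, all below the mature gate (723 to 980.3 CPM).

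**Figure D2:**
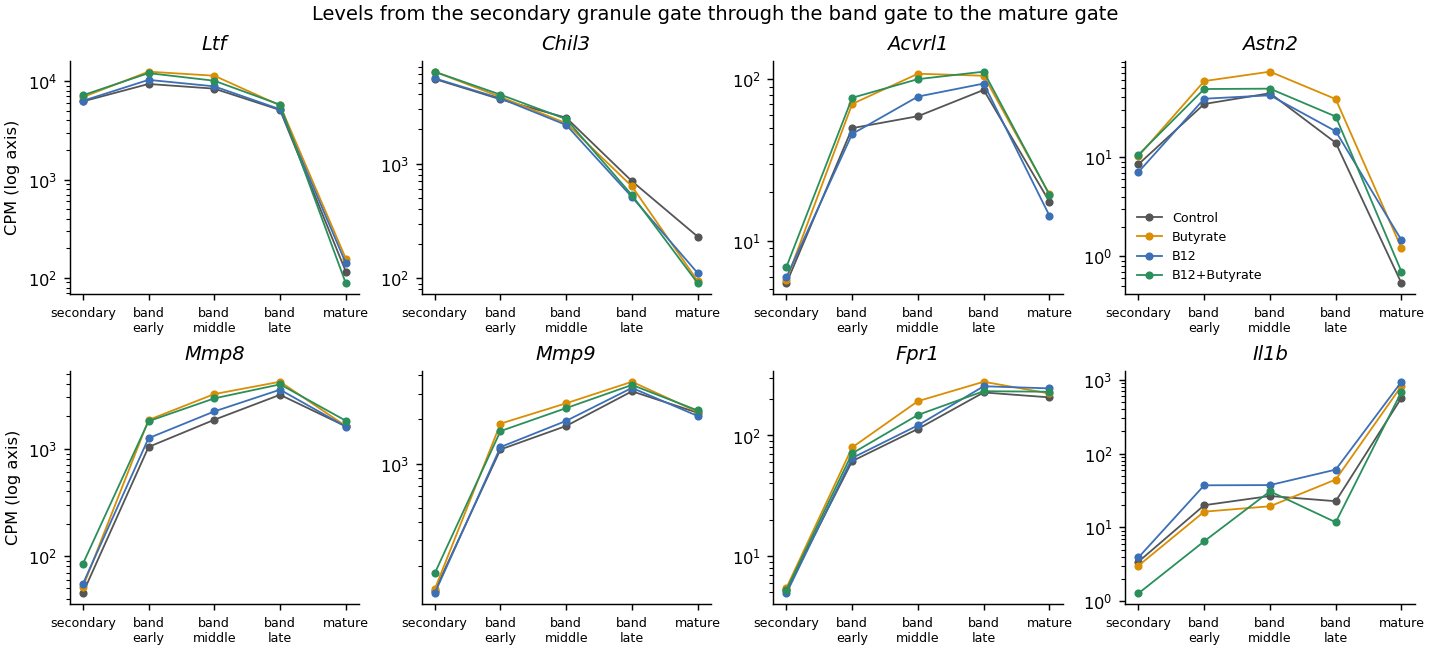
Level (CPM, log axis) of 8 genes along the course from the secondary granule gate through early, middle and late band cells to the mature gate, with 1 line for each of the 4 libraries. Ltf and Chil3 fall through the band gate, Acvrl1 and Astn2 are highest inside it, Mmp8 peaks in late band cells, and Il1b is highest in the mature gate.

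The gate's share of kept cells differed between libraries. Control had 731 of 8752 cells in the gate (8.35%, exact 95% binomial interval 7.78 to 8.95), and Butyrate had 359 of 6793 (5.28%, 4.76 to 5.84). B12 had 678 of 8048 cells (8.42%, 7.83 to 9.05), and B12+Butyrate had 715 of 7616 (9.39%, 8.74 to 10.1). Butyrate alone was lowest and did not overlap any other library's interval. The intervals of Control, B12 and B12+Butyrate overlapped.

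The share in Butyrate was 0.633 times that in Control (log2 ratio -0.66, counting interval -0.84 to -0.48), and the share in B12+Butyrate was 1.11 times that in B12 (log2 0.16, 0.01 to 0.30). B12 against Control gave a log2 ratio of 0.01 (-0.13 to 0.16), and B12+Butyrate against Butyrate gave 0.83 (0.65 to 1.01). Of the cells in the 3 neutrophil gates, which leaves out all other cell types, the band gate made up 17.6%, 12.1%, 13.9% and 16.0%. Here the intervals of Butyrate (10.9 to 13.3%) and B12 (12.9 to 14.9%) overlapped. On that denominator the log2 ratio of B12 to Control was -0.34 (-0.48 to -0.20), that of Butyrate to Control -0.54 (-0.71 to -0.37) and that of B12+Butyrate to Butyrate 0.40 (0.23 to 0.57). With 1 pool of mice per group, the spread between mice is unknown.

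Neighbouring gates moved differently. The secondary granule gate made up 31.4%, 33.9%, 43.2% and 41.9% of kept cells and the mature gate 7.80%, 4.61%, 9.05% and 7.47%. Per 100 cells of the secondary granule gate there were 26.6, 15.6, 19.5 and 22.4 band cells, and per 100 band cells 93.4, 87.2, 107 and 79.6 mature cells. Control had the most band cells per secondary granule cell and Butyrate the fewest. Without called doublets the band shares were 7.52%, 5.20%, 7.65% and 9.004%, and with every cell thinned to 2000 UMIs (leaving out 173, 147, 237 and 93 shallower cells) they were 9.43%, 6.32%, 9.64% and 10.7%.

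**Figure D3:**
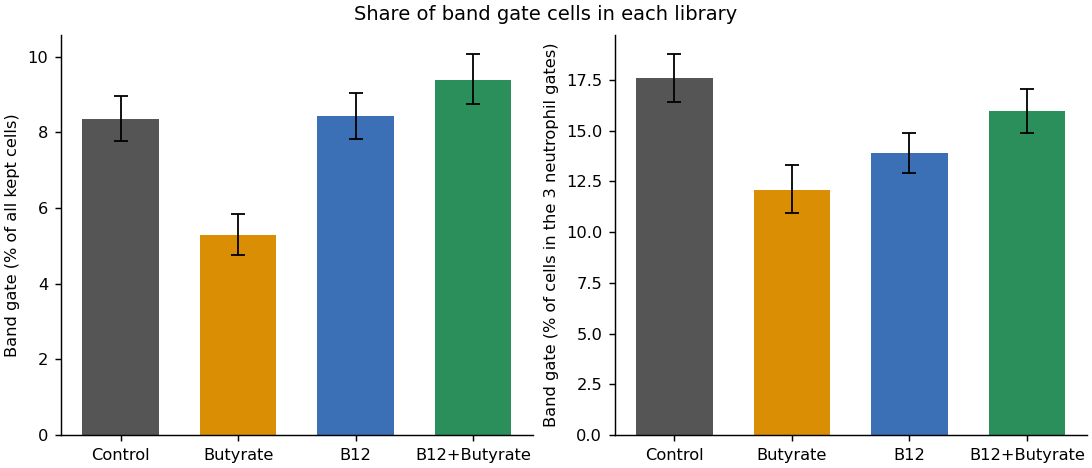
Band gate cells as a percentage of all kept cells and of the 3 neutrophil gates in each library, with exact 95% binomial intervals (counting error only). Butyrate is lowest on both denominators, and B12 is close to Control on the first and lower on the second.

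Levels inside the gate were then compared. Log2 ratios were taken on CPM plus a pseudocount of 10, which understates changes of low genes, for genes at 20 CPM or more in either library, and genes past 1.5-fold were counted. Without replicates a count past 1.5-fold is not a test. Over all genes the median log2 ratio was -0.05 for B12 against Control, -0.03 for Butyrate against Control, 0.00 for B12+Butyrate against B12 and -0.01 for B12+Butyrate against Butyrate.

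Butyrate against Control gave 49 higher (1.01%) and 456 lower (9.35%) of 4875 genes. Without called doublets 72 genes in all were past the fold, where 505 had been. The lower genes included primary granule, cell cycle and ribosome genes. All 16 cytosolic ribosome genes measured were lower, each past the fold, with a median of -0.79, and the median was -0.30 without called doublets. All 15 G2/M genes measured were lower (14 past the fold, median -1.15, and -0.71 without called doublets), and 9 of 10 primary granule genes were lower (8 past the fold, median -1.62, and -1.15 without). Of all genes, 53.5% were lower. Without the cells above 10846 UMIs (the 75th percentile of gate cells) the median was -0.10 for ribosome, -0.50 for G2/M and -0.82 for primary granule genes. The called doublet share was 16.3% in Control and 6.96% in Butyrate. Monocyte markers, at 411.7 CPM in Control and 130.3 CPM in Butyrate, moved the same way.

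The tertiary granule and maturation genes were higher in Butyrate than in Control, 15 of 15 measured, with 2 past the fold and a median of 0.28 (0.15 without called doublets). Of all genes, 46.5% were higher and 1.01% were past the fold higher. Mmp8 differed by 0.66 on the log2 scale, and by 0.41 without called doublets, where it stood at 2405, 3201, 2693 and 3180 CPM. Mmp9 differed by 0.44 (0.17 without) and Fpr1 by 0.46 (0.22 without). The 8 chemoattractant receptors measured were higher too, all within the fold, with a median of 0.29. C5ar1, the receptor for complement C5a, was the highest (0.51). Without called doublets the median was 0.18, C5ar1 had 0.30, Fpr2 0.00 and the chemokine receptor Ccr1 -0.15 (0.08 with them).

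The genes highest in Butyrate against Control were Thbs1, Olfm4, Olr1, Cmss1, Polg2 and Egr1. Thbs1 encodes thrombospondin 1, a secreted matrix glycoprotein. Control held 60.8 CPM of it (exact 95% Poisson interval 55.5 to 66.4), Butyrate 289.8 CPM (271.6 to 308.9), B12 179 CPM (169 to 189.5) and B12+Butyrate 189.6 CPM (179.7 to 199.9). Control was lowest, Butyrate highest, and both B12 libraries lay between them and close together. The log2 ratio was 2.08 for Butyrate and 1.42 for B12, each against Control, and 1.94 and 1.42 without called doublets. Those comparisons share the Control library. Thbs1 also had its lowest value in Control in the secondary granule gate (3.54, 14.1, 9.99 and 12.2 CPM) and in the mature gate (27.6, 142, 84.9 and 56.8 CPM).

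Olr1, a receptor for oxidised LDL, stood at 91.8, 195, 86.8 and 82.4 CPM, and Polg2, a subunit of the mitochondrial DNA polymerase, at 65.8, 129.7, 57.3 and 66.8 CPM. Both were high in Butyrate alone, and the other 3 libraries lay close together. Cmss1 stood at 509.6, 1034, 608 and 773 CPM and Egr1, an immediate early transcription factor, at 116, 221, 151 and 157 CPM. Those 2 were highest in Butyrate and lowest in Control. Log2 ratios of Butyrate to Control for these 4 genes lay between 0.88 and 1.01, and between 0.83 and 1.14 without called doublets.

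B12+Butyrate against B12 gave 12 higher (0.261%) and 57 lower (1.24%) of 4601 genes, and 26 in all without called doublets. Higher genes included Dusp6, a phosphatase of ERK, at 70.2 CPM in B12 and 116 CPM in B12+Butyrate (log2 0.66), the adenosine kinase Adk (0.62) and Scaf4 (0.62). Dusp6 was higher in both butyrate libraries than in the 2 others, at 82.4 and 127 CPM in Control and Butyrate. Bank1, a B cell scaffold protein, had a log2 ratio of 0.71, of 0.27 without called doublets and of 0.08 without the cells above 10846 UMIs (the 75th percentile of gate cells). Cpa6 and Sntb1 followed, at 0.57 and 0.55.

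The butyrate comparisons share no library and can be set side by side. Of 4531 genes measured in both, 2 (0.0441%) were past 1.5-fold higher in both and 47 (1.04%) lower in both. The 2 higher genes were Bank1 (0.71 in each) and Scaf4 (0.59 and 0.62). Without called doublets 0 were higher and 5 lower (Wfdc17, Ifitm1, Elane, Stfa3 and Upp1), and all of these but Upp1 were among the 47. Of the 47 lower genes, 14 still reached 20 CPM in both comparisons once doublets were left out. At any level 7 of the 47 stayed past the fold in both, which adds Mpo, Prtn3 and Ctsg. Scaf4 then had 0.58 and 0.72. Stfa3, of the stefin cluster, and Upp1, a uridine phosphorylase, were named after their values were seen. The 12 lower genes with the largest smaller ratio were Mpo, Prtn3, Elane, Wfdc17, Ctsg, Ifitm1, Nme2, Ctsc, Hspa1a, Ctss, Ms4a3 and Ube2c.

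Wfdc17 encodes a secreted WAP-domain protein, of which Control held 118 CPM (110.4 to 125.5), Butyrate 8.32 CPM (5.48 to 12.1), B12 84.5 CPM (77.7 to 91.7) and B12+Butyrate 23.2 CPM (19.9 to 27.0). Both butyrate libraries were low. The log2 ratios were -2.80 and -1.51, and -2.20 and -1.18 without called doublets, where the levels were 51.1, 3.27, 23.5 and 4.75 CPM. The 10 cells with the most Wfdc17 held 38.1%, 81.5%, 37.5% and 81.5% of its UMIs. In the mature gate Wfdc17 stood at 1369, 584, 1636 and 453 CPM, again low in both butyrate libraries.

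The Ifitm genes encode small membrane proteins that restrict viral entry. Ifitm1 stood at 87.3, 25.6, 99.5 and 37.5 CPM and was low in both butyrate libraries, with log2 ratios of -1.45 and -1.21 (-1.28 and -1.17 without called doublets). In the mature gate it stood at 1544, 805, 1559 and 720.1 CPM. Ifitm2 stood at 747, 479, 747 and 536 CPM, a log2 ratio of -0.63 in the absence of B12 and of -0.47 in its presence, and -0.80 and -0.52 without called doublets. Ifitm3 (-0.22 and -0.18) and Ifitm6 (-0.04 and -0.02) differed by less. The 4 of 7 family members at 20 CPM or more were thus lower in both comparisons, with 2 and 1 past the fold. Ifitm10, under that minimum, had 0.72 and -0.03 (0.51 and -0.14 without called doublets). Of all genes, 9.35% and 1.24% were past the fold lower in these comparisons.

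The primary granule genes in this set were less even. Mpo had log2 ratios of -2.90 and -2.02, and of -2.05 and -0.74 without called doublets, where it stood at 103, 17.4, 16.6 and 5.99 CPM. Ctsg, cathepsin G, had -3.19 and -1.47, and -1.96 and -0.61 without. Prtn3, proteinase 3, had -2.83 and -1.58, and -2.60 and -0.94 without. Elane had -2.51 and -1.53, and -2.99 and -1.004 without. Without the cells above 10846 UMIs the first ratio was -1.30 for Mpo, -1.54 for Ctsg, -1.49 for Prtn3 and -1.20 for Elane. For Mpo the 10 highest cells held 57.3% to 86.8% of the UMIs in each library. Ube2c, a mitotic gene, went from -0.86 to 0.47 in the presence of B12 once called doublets were left out.

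**Figure D4:**
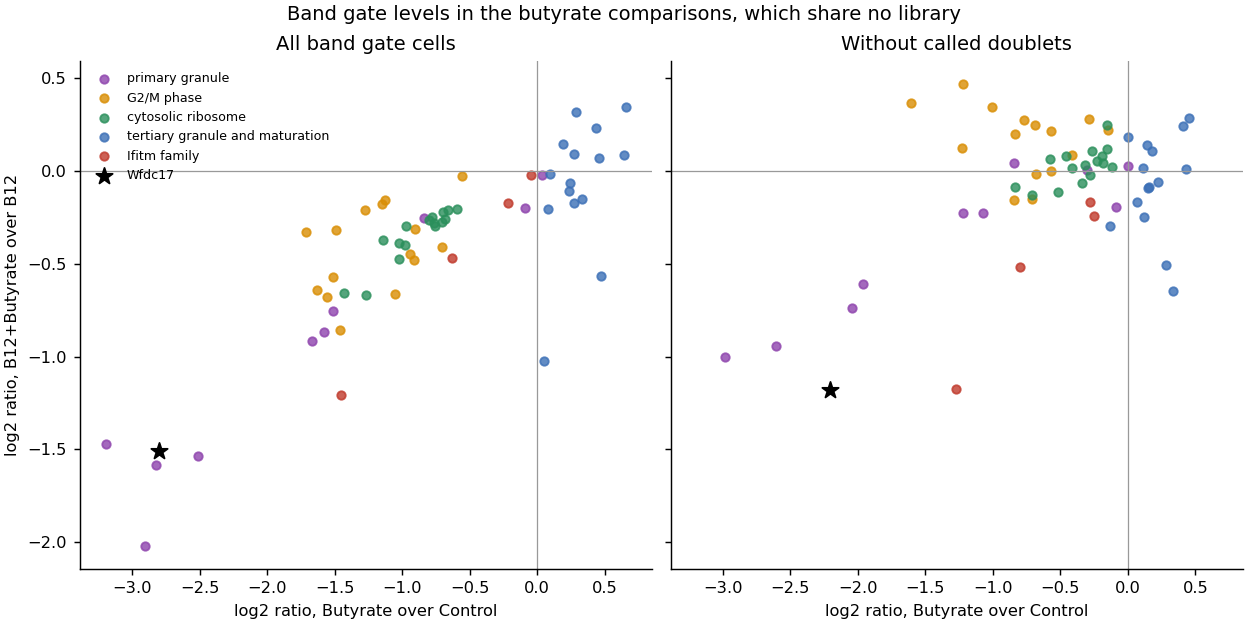
Log2 ratio of Butyrate to Control (x axis) against log2 ratio of B12+Butyrate to B12 (y axis) in the band gate for the members of 5 gene lists and Wfdc17 (star), with all gate cells on the left and without called doublets on the right. Ifitm1 and Wfdc17 stay at the lower left in both panels, and most cell cycle and ribosome genes move towards 0 on the y axis when called doublets are left out.

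B12 against Control gave 13 higher (0.269%) and 59 lower (1.22%) of 4825 genes. Igkc, Jchain and Ighm, antibody genes of plasma cells, came first, with log2 ratios of 4.93, 4.14 and 2.47. Igkc stood at 44.8, 31.7, 1658 and 54.1 CPM, and the 10 cells with the most held 99.8% of its UMIs in B12. Without called doublets the ratios of these 3 genes were -1.44, -0.21 and -0.21. Olfm4, Thbs1 and Stfa2l1 (of the stefin cluster, uncertain) followed.

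Olfm4, olfactomedin 4, marks a subset of neutrophils. It stood at 129, 289, 621 and 255 CPM, and at 182, 295, 669 and 275 CPM without called doublets, so B12 alone was highest and Control lowest. Without the cells above 10846 UMIs the Butyrate to Control ratio of Olfm4 went from 1.11 to -0.14. The log2 ratio of B12 to Control was 2.19, and 1.82 without called doublets. The 10 cells with the most Olfm4 held 47.9%, 68.1%, 18.0% and 35.5% of its UMIs, so the B12 level was spread over more cells than the others. The secondary granule gate had the same highest library (114, 124, 381 and 148 CPM), and so did the mature gate (73.8, 46.0, 179 and 70.1 CPM).

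The genes lowest in B12 against Control were Mpo (-1.41), Prtn3 (-1.32), S100a4 (-1.24), Zeb2 (-1.19), Elane (-1.14) and Fn1 (-1.04). Without called doublets Mpo had -2.09, Prtn3 -2.28, S100a4 -1.60, Zeb2 -1.32, Elane -2.18 and Fn1 -0.92. Without the cells above 10846 UMIs Prtn3 had -1.05, Mpo -0.79 and S100a4 -0.35, and Zeb2, Fn1 and Elane had -0.25, -0.17 and -0.16. S100a4, Zeb2 and Fn1 are high in monocytes, whose markers summed to 411.7 CPM in Control and 205.5 CPM in B12. Without called doublets S100a4 stood at 27.4, 1.09, 2.35 and 1.76 CPM, and Fn1 at 10.9, 1.09, 1.07 and 1.06 CPM. Primary granule genes had a median log2 ratio of -0.89 (-0.97 without called doublets), with 7 of 10 past the fold. All 16 ribosome genes were lower too, with 1 past the fold and a median of -0.46 (-0.39 without called doublets). Of all genes, 64.1% were lower in B12 than in Control. Without the cells above 10846 UMIs the median was -0.37 for primary granule and -0.16 for ribosome genes.

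B12+Butyrate against Butyrate gave 29 higher (0.641%) and 11 lower (0.243%) of 4525 genes. The highest were H1f5, H2ac8, H2ac6, Stmn1, Pclaf and Hnrnpab, of which Stmn1 and Pclaf are known from dividing cells, at log2 ratios of 0.67 to 1.25 and of 0.23 to 0.69 without called doublets. Without the cells above 10846 UMIs these 6 lay between -0.17 and 0.49. H1f5, H2ac8 and H2ac6 are histone genes with close copies and stay uncertain. The lowest were Cxcl2 (-1.35), Olr1 (-1.15), Ifi27l2a (-1.06), Polg2 (-0.86), Fbxl5 (-0.70) and Tgm3 (-0.60), and without called doublets they lay between -1.42 and -0.59.

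Across both B12 comparisons, which share no library, 1 of 4405 genes (0.0227%) was past the fold higher in both and 2 (0.0454%) lower in both. The higher gene was Igkc (4.93 and 0.62), which had -1.44 and -0.38 without called doublets. In that setting 2 other genes were higher in both, H2-Ab1 and Cd74 of antigen presentation, named after their values were seen. The lower genes were Cxcl2 and Stfa1 in both settings. Stfa1, of the stefin cluster and uncertain for that reason, was named after its values were seen: it stood at 49.9, 49.9, 6.49 and 24.5 CPM, and the 10 cells with the most held 75.6% to 95.5% of its UMIs. Cxcl2 encodes a chemokine that draws neutrophils. Control held 76.4 CPM (70.5 to 82.7), Butyrate 134 CPM (121.7 to 147), B12 43.9 CPM (39.1 to 49.2) and B12+Butyrate 46.5 CPM (41.6 to 51.7). Both B12 libraries were low and their intervals overlapped. The log2 ratios were -0.68 and -1.35, and -1.03 and -1.28 without called doublets. In the mature gate Cxcl2 stood at 433, 776, 510.1 and 320.4 CPM, where B12 lay above Control.

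**Figure D5:**
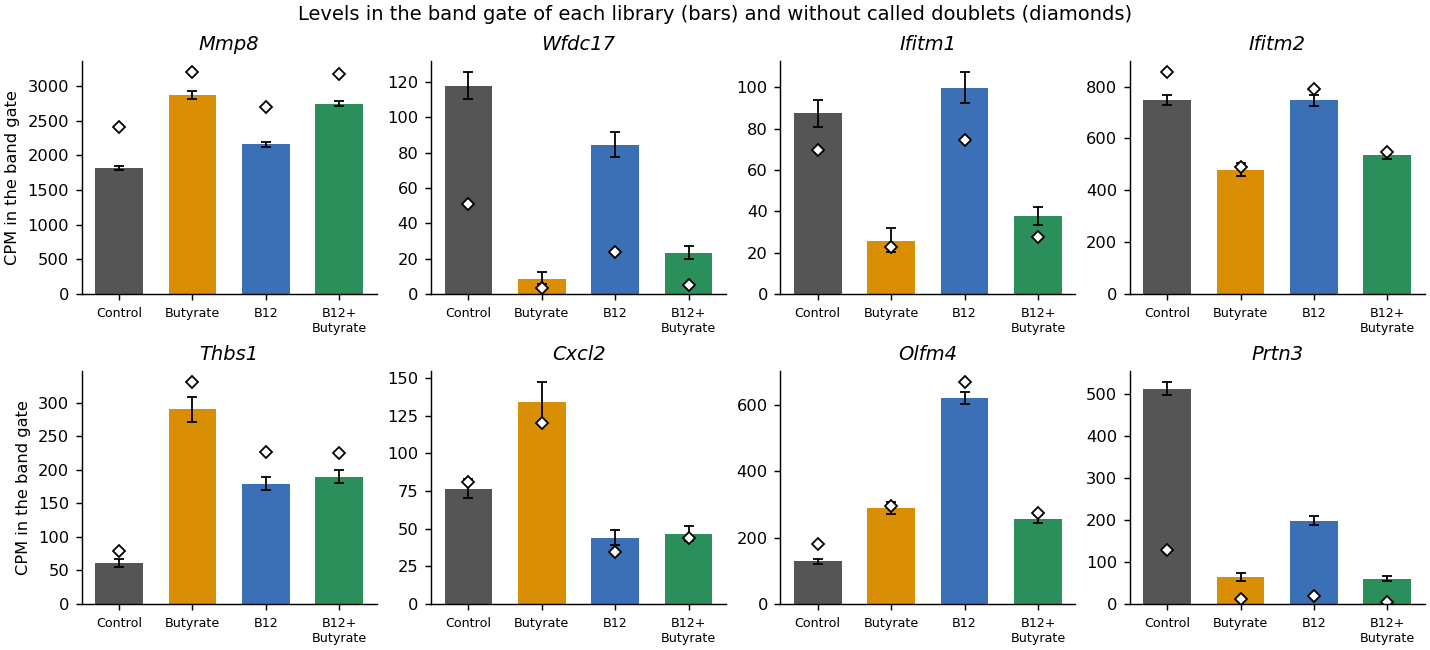
Level in the band gate (CPM, bars from 0, exact 95% Poisson intervals for counting error) of Mmp8, Wfdc17, Ifitm1, Ifitm2, Thbs1, Cxcl2, Olfm4 and Prtn3 in the 4 libraries, with diamonds for the level without called doublets. Wfdc17 and Ifitm1 are low in both butyrate libraries, Thbs1 is lowest in Control, Cxcl2 is low in both B12 libraries and Olfm4 is highest in B12.

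All 10 NF-kB genes measured were higher in Butyrate than in Control, with a median of 0.25 (0.30 without called doublets) and 2 past the fold, Cxcl2 at 0.74 and Nfkbiz at 0.62 (0.45 without). Of all genes, 46.5% were higher in Butyrate than in Control and 1.01% were past the fold higher. The median of the NF-kB list was 0.00 for B12 against Control, 0.04 for B12+Butyrate against B12 and -0.26 for B12+Butyrate against Butyrate. Il1b, also on that list, had 0.68 in B12 against Control and -1.03 in B12+Butyrate against B12 (0.19 and -0.51 without called doublets). Glycolysis genes had medians between -0.01 and 0.02 and actin cytoskeleton genes between -0.01 and 0.05. NADPH oxidase genes had medians between -0.06 and 0.15, with 0 past the fold in any comparison. Too few interferon genes reached 20 CPM (4 to 6 of 22) to describe that list by its median.

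The handling response list, immediate early and heat shock genes that can move while cells are thawed and sorted, had medians of 0.18, 0.29, 0.04 and -0.04. Egr1 was its highest gene in Butyrate against Control (0.88) and Hspa1a its lowest (-0.89, and -0.36 without called doublets). Mitochondrially encoded genes had medians of -0.43, -0.36, -0.12 and -0.18, and -0.32, 0.08, 0.13 and -0.27 without called doublets. The part of cell handling in the differences between libraries was not tested.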

How the data were processed

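The authors deposited matrices of unnormalised UMI counts (33696 genes by barcodes); the file headers name Cell Ranger 7.1.0 as their source, and the build was GRCm39 per the submitters' processing notes, from 10x Genomics 3' libraries per the labels' protocols. Intron counting, strand use and further barcode filters are not given in the sources used here. The members and gene lists (33 lists) were chosen with earlier results of these data known.

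From these counts the gates were set with Python 3.11.15, numpy 2.4.6, scipy 1.17.1 and pandas 2.3.3, and UMIs were summed per library and gate. All kept cells held 92643344 to 120843088 UMIs per library, and gate sums held 3247043 to 7982235. Doublets were called per library with the Scrublet method in scanpy 1.11.5 at 0.8% per 1000 cells and kept, as the rule removes none. Gates were compared with edgeR 4.0.16 in R 4.3.3 (TMM, filterByExpr, quasi-likelihood test, libraries as blocks), tested on simulated data, with DESeq2 1.42.0 as an alternative. Libraries were compared without a test, and shares have exact binomial, levels exact Poisson 95% intervals.

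Named genes were the markers and gate genes, the 6 highest and 6 lowest genes at 50 CPM or more in each comparison, up to 12 past 1.5-fold in both butyrate or both B12 comparisons, the 8 largest called genes each way per neighbouring gate at 50 CPM or more, up to 8 higher or lower than both neighbours, and list members at the extremes or past the fold. Some genes that this rule or a list names are not reported here. Alternatives changed the cell filter, gate limits, doublets, thinning, makeup, pseudocount, minimum, scaling, denominator, tool, library term and libraries used, and 1, without cells above 10846 UMIs (the 75th percentile), was chosen after seeing the data. Figures were drawn with matplotlib 3.10.9.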

Additional observations from a re-analysis of the deposited data

Results flagged for a closer look

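The share of kept cells in the band gate went opposite ways in the butyrate comparisons. The log2 ratio was -0.66 for Butyrate against Control (8.35% to 5.28%) and 0.16 for B12+Butyrate against B12 (8.42% to 9.39%). These comparisons share no library. Their difference was 0.82 on the log2 scale, with a 95% interval of 0.59 to 1.04 for counting error only, and with 1 library per group it was not tested. Without called doublets the ratios were -0.53 and 0.24.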

How the results depend on the processing

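With the neutrophil gates as denominator the log2 share ratio was -0.34 for B12 against Control and 0.40 for B12+Butyrate against Butyrate, and without cells above the UMI limit it was 0.23 for B12 against Control and -0.48 for Butyrate against Control. The other settings kept the 4 share ratios within counting error of the values given. Counts of genes past 1.5-fold moved most. For B12 against Control (72) they were 157 with thinning, 112 with Retnlg at 0.2%, 43 as a mean over cells, 31 without cells above the UMI limit and 162 with a pseudocount of 1. For Butyrate against Control (505) they were 72 without doublets, 167 as a mean over cells, 60 under the UMI limit and 799 with no minimum. For B12+Butyrate against B12 (69) they were 26 without doublets, 134 with thinning, 35 as a mean over cells, 36 under the UMI limit and 133 with a pseudocount of 1. For B12+Butyrate against Butyrate (40) they were 20, 204, 24, 25 and 95 in the same order, and 71 with no minimum. The count for both butyrate comparisons (49) was 5 without doublets, 22 with thinning, 20 with Retnlg at 0.2%, 18 as a mean over cells, 10 under the UMI limit and 97 with a pseudocount of 1. That for both B12 comparisons (3) was 5 with Camp and Ngp at 2%. Genes called against the secondary granule gate numbered 4979 without doublets (3249 with them). Leaving out 1 library at a time gave 2965 to 3592 calls there and 1593 to 1823 against the mature gate (1676). The causes were not tested.

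Signs changed for antibody genes. In B12 against Control, without doublets, with Retnlg at 0.2% and under the UMI limit, Igkc had -1.44, -0.79 and -0.63, Jchain -0.21, -0.25 and -0.27, and Ighm -0.21, -0.35 and -0.18. In B12+Butyrate against B12, Jchain had 0.025, 0.025 and 0.034 and Ighm 0.50, 0.52 and 0.060 under these settings, and Igkc 0.25 and 0.58 under the first and second. In B12+Butyrate against Butyrate, Igkc had -0.38 without doublets and -0.75 under the UMI limit. Under that limit Olfm4 (Butyrate against Control) had -0.14, Hspa1a 0.16, H2ac8 and Stmn1 (B12+Butyrate against Butyrate) -0.17 and -0.094, and the S phase median there -0.017. Ube2c (B12+Butyrate against B12) had 0.47 without doublets. Of 660 values of single genes under an alternative, 443 stayed close to the value given, 193 moved and 24 changed sign. No paired analysis was possible because each group has 1 library. Depth limits genes under about 20 CPM, which the smallest gate sum holds at few UMIs.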
